A study of Mus musculus with 13 samples.

Results

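The genes described here are 9 complement components and regulators, C3, C4b, C2, Cfb, Cfp, Serping1, C3ar1, C5ar1 and Cd55, chosen by symbol from a count table of 24421 mouse genes. C1q, which starts the classical pathway, was not among them. RNA was sequenced from female MMTV-HER2/Neu mice in 13 libraries, all of the FVB/N-TgN (MMTV-HER2/neu) strain, line 202Mul/J, whose genotype the labels give as wild type although the strain carries the transgene. The transgene is a rat HER2/Neu gene driven by the MMTV promoter, which is active mainly in mammary epithelium, so the mice form mammary tumors. The level of the transgene was not measured here. All groups share this transgene, the glands included, and the mice entered the study at 8 weeks of age. The groups were cancer-free mammary glands of untreated mice (n = 2), primary untreated tumors (n = 3), primary STV tumors (n = 3), recurrent 17-DMAG tumors (n = 3) and recurrent 17-DMAG+STV tumors (n = 2). STV (stavudine) is a nucleoside inhibitor of reverse transcriptase, given at 1 mg/mL in drinking water from 2 months of age or after the first tumors appeared, and 17-DMAG is an inhibitor of the chaperone HSP90, injected at 20 mg/kg 3 times per week. Recurrent tumors had regrown under 17-DMAG, which was continued until they were taken, so regrowth and exposure to the drug cannot be told apart. Each library was a piece of 1 gland or tumor, and tumors that came from the same mouse, if any, could not be identified from the labels, so p-values measure the spread between these pieces.

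Complement is a cascade of plasma and tissue proteins that marks cells for uptake or lysis. The classical and lectin pathways cleave C4 and C2 to form a C3 convertase, whereas the alternative pathway builds its own convertase from C3b and factor B (Cfb), held together by properdin (Cfp). Both end in cleavage of C3 and release of the peptides C3a and C5a, which act through C3ar1 and C5ar1 on myeloid cells. Serping1 encodes C1 inhibitor, a secreted serpin that stops the C1 proteases, and Cd55 encodes decay-accelerating factor, a membrane protein that breaks up convertases on the cell's own surface. The liver makes most plasma complement, but fibroblasts, epithelial cells and macrophages also make several components locally.

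By GENCODE on GRCm38, 4 of the 9 genes lie on chromosome 17, all on the minus strand. C4b is at chr17:34728380-34743882, Cfb at chr17:34856374-34862518 and C2 at chr17:34862604-34898265, and these 3 are neighbours in the class III region of the major histocompatibility complex. Only 85 bases separate Cfb from C2. C3 lies farther along at chr17:57203970-57228136. The other 5 are on the minus strand of other chromosomes: Cfp at chrX:20925454-20931555, Serping1 at chr2:84765387-84775444, C3ar1 at chr6:122847138-122856161, C5ar1 at chr7:16246743-16259540 and Cd55 at chr1:130439027-130462744. Some of these counts can share reads with a neighbour or copy. C4b has a close paralog, C4a, counted at 1.87 to 3.50 CPM in tumors. C2 overlaps Zbtb12 on the opposite strand, counted at 7.49 to 13.2 CPM in tumors. The strand setting of the counting was not stated, so reads of C2 and Zbtb12 may not have been separated. Cd55b, the copy of Cd55, was counted at no more than 0.387 CPM in tumors.

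The promoter tables of RefSeq held 5 of the 9 genes: C3, Cfp, C3ar1, C5ar1 and Cd55. C4b, C2, Cfb and Serping1 had no entry. The 250 bases before the start site are shown for C3, the gene that varied most between tumors, and for Cd55, the gene that varied least. They are written 5′ to 3′ on the minus strand of GRCm38.p6, at chr17:57228137-57228386 for C3 and at chr1:130462745-130462994 for Cd55, and capitals mark a match to one of the motifs listed below.
C3: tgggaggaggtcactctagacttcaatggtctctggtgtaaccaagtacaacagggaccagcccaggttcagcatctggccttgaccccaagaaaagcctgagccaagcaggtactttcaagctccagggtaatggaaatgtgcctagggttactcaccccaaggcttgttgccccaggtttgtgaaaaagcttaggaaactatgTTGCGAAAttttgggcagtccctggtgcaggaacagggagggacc
Cd55: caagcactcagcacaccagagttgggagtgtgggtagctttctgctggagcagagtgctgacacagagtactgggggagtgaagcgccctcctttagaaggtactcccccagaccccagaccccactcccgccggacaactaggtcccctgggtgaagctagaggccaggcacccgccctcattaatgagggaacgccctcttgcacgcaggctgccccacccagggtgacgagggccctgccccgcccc

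Motifs of factors known to act on acute phase and interferon genes were searched on both strands of each 300-base window, which runs from 250 bases before to 50 bases after the start. The letters were TTGCNNAA for C/EBP, GAAANNGAA for the core of the interferon-stimulated response element, TTCNNNGAA for the STAT site called GAS and GGGANTTTC for NF-kB, where N is any base. C3 held 1 C/EBP match, beginning at position -45 relative to the start. C5ar1 held 1 match to the interferon-stimulated response element on the opposite strand, beginning at position -66 relative to the RefSeq start, which itself lies 202 bases inside the GENCODE gene. Cfp, C3ar1 and Cd55 held none of the motifs. Over all 32851 windows in the table, 10.8% held a C/EBP match, 8.56% an interferon-stimulated response element match, 8.30% a GAS match and 1.11% an NF-kB match. A match describes letters and not a bound site.

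Values are CPM (reads of a gene per 1000000 counted reads), scaled to the library total times a TMM factor. Totals ran from 39921388 to 56887708 counts, and the lowest count of any of the 9 genes in a library was 52, far above the 3 counts taken as the detection floor. The TMM factor was 0.493 in gland 2 and 0.999 to 1.12 elsewhere. Gland 2 was rich in milk RNA: 8 milk protein genes summed to 764799 CPM there and to 28062 CPM in gland 1. Among the tumors, recurrent 17-DMAG tumor 1 stood apart. It was the highest of 11 tumors for 7 of the 9 genes and the lowest for Cd55. It also had the highest summed level of 9 fibroblast markers, 5817 CPM against 281 to 1927 CPM in the other tumors, and of 8 macrophage markers, 699 CPM against 152 to 435 CPM. Its luminal epithelium sum was the highest as well, 2662 CPM, with 2598 CPM next in primary untreated tumor 2. So were its sums for milk protein (23368 CPM), endothelium (260 CPM), neutrophils (14.8 CPM) and B cells (1.67 CPM). Its T cell and adipocyte sums were not the highest, at 6.60 and 57.3 CPM. The part of these cell types in its values was not tested. In bulk tissue, fewer cells of a type and less RNA per cell cannot be told apart. Hepatocyte markers were at or near 0 in tumors: Alb (albumin) was at 0 to 1.24 CPM and the 4 markers summed to at most 1.63 CPM.

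Per kilobase of exon, Cd55 had the highest median level over the 11 tumors, 32.2 CPM per kb, followed by C4b at 23.6 CPM per kb. C3, Cfb and Serping1 came next at 8.69, 8.44 and 8.43 CPM per kb, and their ranges overlapped widely. Cfp stood at 4.30, C3ar1 at 3.77, C5ar1 at 1.34 and C2 at 1.24 CPM per kb. In the glands the order was different, with C4b at 185.7, C3 at 114 and Serping1 at 42.8 CPM per kb, all above Cd55 at 34.9 CPM per kb.

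C4b encodes the C4 protein that the C1 and MASP proteases cleave. It was at 272 and 1727 CPM in the glands. Primary untreated tumors had 127, 39.2 and 93.3 CPM and primary STV tumors 72.0, 48.8 and 87.8 CPM. Recurrent 17-DMAG tumors had 414, 207 and 132 CPM and recurrent 17-DMAG+STV tumors 875 and 341 CPM. All 5 recurrent tumors lay above all 6 primary tumors, with a gap from 127 to 132 CPM. That complete separation was seen for C4b alone among the 9 genes and for 0.652% of the 16870 genes tested in tumors. In the order of group means the glands (999 ± 1029 CPM, SD, n = 2) came first, then recurrent 17-DMAG+STV (608 ± 378, SD, n = 2), recurrent 17-DMAG (251 ± 146, SD, n = 3), primary untreated (86.4 ± 44.2, SD, n = 3) and primary STV tumors (69.5 ± 19.6, SD, n = 3). Only the step from recurrent 17-DMAG to primary untreated tumors was free of overlap between neighbours.

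C2 encodes the protease of the classical C3 convertase. It was the least abundant member per length in tumors, at 14.6 and 11.8 CPM in the glands, 4.90, 1.06 and 2.37 CPM in primary untreated tumors and 3.45, 1.13 and 1.24 CPM in primary STV tumors. Recurrent 17-DMAG tumors had 9.96, 2.52 and 7.66 CPM and recurrent 17-DMAG+STV tumors 5.98 and 5.97 CPM. Both glands lay above every tumor. The share of all genes with this pattern over all tumors was not counted, but 20.4% were lower in every primary untreated tumor than in both glands. All 5 recurrent tumors exceeded the median of the primary tumors, but recurrent 17-DMAG tumor 2 stayed below primary untreated tumor 1.

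C3 is the protein on which all pathways converge. Its level was 888 and 284 CPM in the glands, 83.2, 16.1 and 36.9 CPM in primary untreated tumors and 44.7, 30.7 and 4.32 CPM in primary STV tumors. Recurrent 17-DMAG tumors had 328, 16.1 and 60.4 CPM, and recurrent 17-DMAG+STV tumors 80.8 and 85.0 CPM. The highest tumor exceeded the lowest by 76.0-fold, the widest range of the 9 genes. The 3 recurrent 17-DMAG tumors held the highest and the second lowest value of all tumors, so this group spanned nearly the whole range.

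The alternative pathway genes behaved differently from each other. Cfb, the protease of the alternative convertase, was at 58.1 and 72.2 CPM in the glands, 29.0, 9.58 and 20.6 CPM in primary untreated tumors and 22.0, 11.8 and 23.2 CPM in primary STV tumors. It reached 58.7, 28.6 and 33.0 CPM in recurrent 17-DMAG tumors and 27.9 and 17.1 CPM in recurrent 17-DMAG+STV tumors. The recurrent groups thus did not overlap, and 10.5% of genes were likewise lower in both tumors with STV. Cfp, made mostly by myeloid cells, was at 22.8 and 8.49 CPM in the glands, 6.01, 7.46 and 6.72 CPM in primary untreated tumors and 5.57, 7.03 and 4.49 CPM in primary STV tumors. In recurrent 17-DMAG tumors it was 20.9, 4.38 and 9.32 CPM, and in recurrent 17-DMAG+STV tumors 9.46 and 9.24 CPM. The recurrent 17-DMAG group again held both the highest and the lowest tumor for Cfp.

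The 2 regulators differed in how far they varied. Serping1 was at 118 and 54.6 CPM in the glands, 36.9, 11.9 and 16.9 CPM in primary untreated tumors and 16.8, 12.2 and 6.81 CPM in primary STV tumors. It was at 113, 9.85 and 34.6 CPM in recurrent 17-DMAG tumors and 36.3 and 66.9 CPM in recurrent 17-DMAG+STV tumors, and the tumors ran over a 16.6-fold range, less than for C3 (76.0-fold) and C4b (22.3-fold). Cd55 was at 94.9 and 81.9 CPM in the glands, 72.4, 70.6 and 71.7 CPM in primary untreated tumors and 82.8, 94.2 and 89.5 CPM in primary STV tumors. It was at 54.7, 81.6 and 89.8 CPM in recurrent 17-DMAG tumors and 78.4 and 88.6 CPM in recurrent 17-DMAG+STV tumors, a 1.72-fold range over all tumors and the narrowest of the 9 genes.

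The receptors for the anaphylatoxins were low in most tumors. C3ar1 was at 20.9 and 10.8 CPM in the glands, 16.2, 19.0 and 17.5 CPM in primary untreated tumors and 9.90, 12.8 and 14.0 CPM in primary STV tumors. It was at 40.8, 13.5 and 14.3 CPM in recurrent 17-DMAG tumors and 22.0 and 17.0 CPM in recurrent 17-DMAG+STV tumors. C5ar1 was at 8.65 and 4.75 CPM in the glands, 3.35, 4.69 and 2.45 CPM in primary untreated tumors and 2.39, 2.74 and 3.02 CPM in primary STV tumors. It was at 19.5, 3.44 and 3.74 CPM in recurrent 17-DMAG tumors and 8.19 and 6.12 CPM in recurrent 17-DMAG+STV tumors. For both receptors the tumor values enclosed those of the glands on both sides, and recurrent 17-DMAG tumor 1 alone set the high values of its group.

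**Figure D1:**
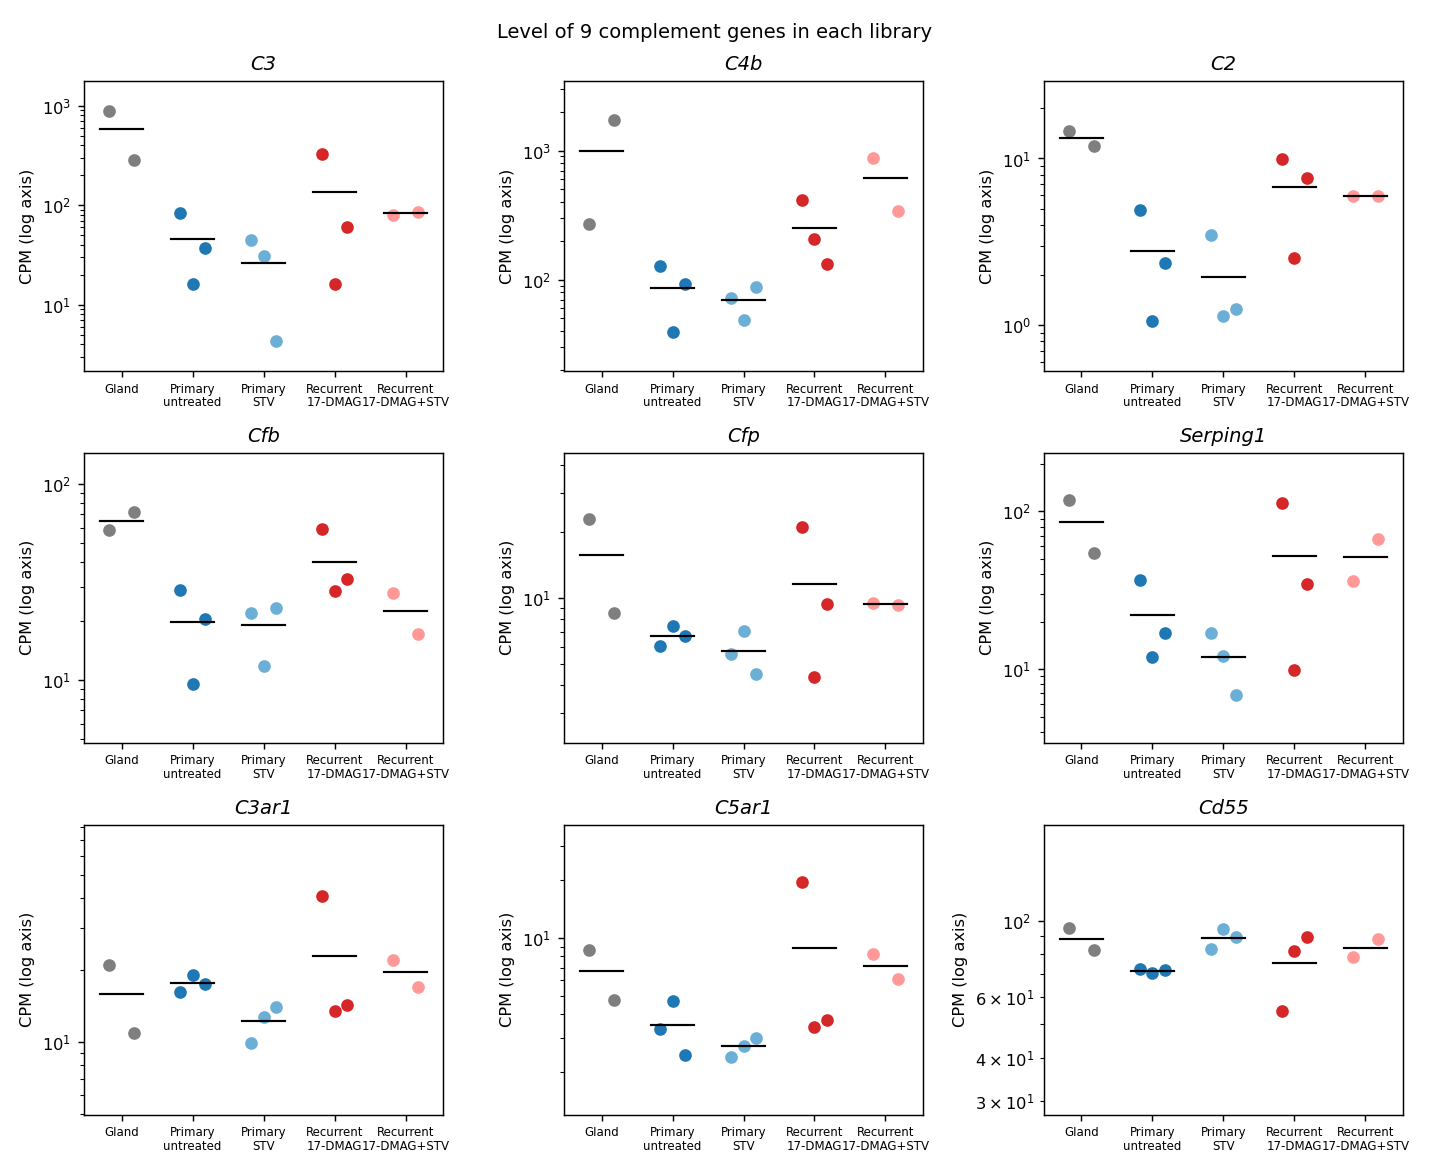
Level of each of the 9 genes in CPM on a log axis, with 1 point per library and a bar at the group mean, for the 5 groups. C4b is the gene whose 5 recurrent tumors (132 to 875 CPM) all lie above the 6 primary tumors (39.2 to 127 CPM), whereas Cd55 stays between 54.7 and 94.9 CPM in all 13 libraries.

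Primary untreated tumors were compared with the glands to ask how complement RNA differs between tumor and tissue of origin. Of the 9 genes, 8 were lower in tumors and 1, C4b, passed the edgeR quasi-likelihood test at a Benjamini-Hochberg adjusted p under 0.05. The background for that call was 2.11% of 17135 genes. C4b fell by 3.53 on the log2 scale (SE 0.79, 95% interval -5.27 to -1.79, adjusted p = 0.0496). The call was lost in 11 of 13 fits that left out 1 library and in 6 of 8 other settings. Without gland 2, which had the higher C4b level of the 2 glands, the difference was -1.56, and without gland 1 it was -4.28. With library totals in place of TMM factors it was -2.66 (adjusted p = 0.122).

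The other components were lower in tumors by edgeR estimates that missed the threshold. The log2 fold change was -3.69 for C3 (SE 1.21, adjusted p = 0.107), -2.25 for C2 (SE 0.70, adjusted p = 0.0976) and -1.72 for Cfb (SE 0.47, adjusted p = 0.0725). DESeq2 called these 3 and C4b, against a DESeq2 background of 13.9% of genes. Serping1 was at -1.98 (SE 0.83, adjusted p = 0.179), Cfp at -1.22 (SE 0.55, adjusted p = 0.208) and C5ar1 at -0.94 (SE 0.67, adjusted p = 0.389). Cd55 differed little, at -0.31 (SE 0.19, adjusted p = 0.326) and at 0.025 when scaled to library totals, and C3ar1 stood at 0.14 (SE 0.46, adjusted p = 0.862). In 8 of the 9 genes every primary untreated tumor lay below both glands, which held for 20.4% of all genes tested, and no member was higher in every tumor, which held for 18.8% of genes. The median log2 fold change was -1.72 over the 9 genes and -0.019 over all genes. Fibroblast markers summed to 2394 and 2717 CPM in the glands and to 433 to 972 CPM in these tumors. Adipocyte markers summed to 678 to 804 CPM in the glands and to 24.7 to 90.2 CPM in these tumors. Gland 1 also stood apart from gland 2 in immune markers: B cell markers summed to 137 CPM against 2.39 CPM, T cell markers to 130 CPM against 7.57 CPM and macrophage markers to 653 CPM against 208 CPM. In these tumors the sums were at most 1.35, 9.70 and 251 CPM. Without gland 1 the log2 fold change of Cfp was -0.30, of Serping1 -1.28, of C3 -2.60 and of C3ar1 0.73. The part of stroma, fat and immune cells in these differences was not tested.

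STV was compared with no STV in primary tumors. By edgeR, 0 of the 9 genes and 0% of 16870 genes were called. No member reached an unadjusted p under 0.05, against 634 of 16870 genes, and DESeq2 called no member and 17 of 16707 genes. C3ar1 was lower in every STV tumor, at 12.2 ± 2.1 against 17.6 ± 1.4 CPM (SD, n = 3 each; log2 fold change -0.54, SE 0.39, 95% interval -1.41 to 0.33), a pattern seen in 5.83% of genes. Macrophage markers summed to 152 to 166 CPM in primary STV and to 203 to 251 CPM in primary untreated tumors. Within that list Csf1r, Adgre1 and Cd68 each overlapped between the groups. Csf1r averaged 42.4 CPM with STV and 42.1 CPM without, Adgre1 10.8 and 12.4 CPM, and Cd68 10.9 and 14.1 CPM. The part of macrophages in the C3ar1 difference was not tested. Cd55 was higher in every STV tumor, at 88.8 ± 5.7 against 71.6 ± 0.89 CPM (SD, n = 3 each; log2 fold change 0.30, SE 0.16, 95% interval -0.07 to 0.67), as were 5.00% of genes. The widest intervals belonged to C3 (-0.78, 95% interval -3.19 to 1.63) and Serping1 (-0.88, 95% interval -2.62 to 0.85), so changes of several-fold in either direction were not detectable for C3. C2 was at -0.52 (SE 0.67), C5ar1 at -0.38 (SE 0.61), C4b at -0.32 (SE 0.54), Cfp at -0.25 (SE 0.46) and Cfb at -0.07 (SE 0.44), and the groups overlapped for these 5 genes. Primary STV tumor 3 had the lowest C3 and Serping1 of all tumors, and also the lowest summed fibroblast level, 281 CPM.

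Recurrent 17-DMAG tumors were set against primary untreated tumors to ask what differed after regrowth without STV. All 9 estimates were above 0, with a median log2 fold change of 1.25 against -0.0052 over all genes, but edgeR called 0 of the 9 genes and 0% of all genes. At an unadjusted p under 0.05 by edgeR stood 2 members, C4b and Cfb, and 1635 of 16870 genes. DESeq2 called no member and 61 of 16707 genes. C4b was 2.88-fold higher (log2 fold change 1.53, SE 0.55, 95% interval 0.29 to 2.76, adjusted p = 0.509). It was the 1 member higher in every recurrent tumor, as were 7.65% of genes, and no member was lower in every one, as were 7.45%. C3 was at 1.56 (SE 1.09), C5ar1 at 1.33 (SE 0.62), C2 at 1.27 (SE 0.68), Serping1 at 1.25 (SE 0.78) and Cfb at 1.01 (SE 0.44). Cfp was at 0.77 (SE 0.46), C3ar1 at 0.36 (SE 0.39) and Cd55 at 0.06 (SE 0.16). Recurrent 17-DMAG tumor 1 decided most of these values. Without it C3 was at -0.25, C3ar1 at -0.33, C5ar1 at 0.05, Cfp at 0.04 and Serping1 at 0.03. The estimates of C4b (0.97), C2 (0.88) and Cfb (0.65) stayed above 0 without that tumor, each smaller than with it.

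The same comparison under STV, recurrent 17-DMAG+STV against primary STV tumors, rests on 5 other libraries. In 7 of the 9 genes both recurrent tumors lay above all 3 primary STV tumors, the exceptions being Cfb and Cd55. That pattern held for 17.4% of all genes and the opposite one for 17.9%. C4b was 8.76-fold higher (log2 fold change 3.13, SE 0.61, 95% interval 1.76 to 4.51, unadjusted p = 0.000542, adjusted p = 0.254 by edgeR). Without recurrent 17-DMAG+STV tumor 1, which had the highest C4b of all tumors, that log2 fold change was 2.28. Serping1 was at 2.11 (SE 0.85, 95% interval 0.20 to 4.03), C3 at 1.64 (SE 1.18), C2 at 1.62 (SE 0.74) and C5ar1 at 1.40 (SE 0.67). Cfp at 0.72 (SE 0.51), C3ar1 at 0.68 (SE 0.43), Cfb at 0.25 (SE 0.49) and Cd55 at -0.09 (SE 0.18) were nearer 0. edgeR called 0 of the 9 genes and 0% of all genes. At an unadjusted p under 0.05 by edgeR were 2 members, C4b and Serping1, and 1696 of 16870 genes. DESeq2 called C4b alone among the 9 (adjusted p = 0.000115), against a DESeq2 background of 2.10%. Fibroblast markers summed to 1449 and 1927 CPM in these recurrent tumors and to 281 to 693 CPM in primary STV tumors, and macrophage markers to 434.5 and 388 CPM against 152 to 166 CPM. Their part in the higher complement levels was not tested.

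Averaged over both water arms, recurrent tumors exceeded primary tumors for 8 of the 9 genes, and the median log2 fold change of the 9 was 1.37 against 0.0018 over all genes. C4b led with a 5.02-fold difference (log2 fold change 2.33, SE 0.41, 95% interval 1.41 to 3.25, unadjusted p = 0.000258, adjusted p = 0.287 by edgeR). Over all settings tried, its adjusted p ran from 9.24e-06 in DESeq2 to 0.554, and its estimate from 1.91 to 2.60. Serping1 (1.68, SE 0.58, adjusted p = 0.313), C2 (1.44, SE 0.50, adjusted p = 0.314) and C5ar1 (1.37, SE 0.46, adjusted p = 0.313) also had unadjusted p-values under 0.05. These were 4 of 9 genes, against 2296 of 16870 genes. Without recurrent 17-DMAG tumor 1, C5ar1 was at 0.72, C3 at 0.69 and Serping1 at 1.06. edgeR called 0 of the 9 and 0% of all genes, and DESeq2 called 1 of the 9, C4b, and 2.72% of all genes. C3 was 3.04-fold higher (SE of the log2 fold change 0.80). On the log2 scale Cfp was at 0.74 (SE 0.34), Cfb at 0.63 (SE 0.33) and C3ar1 at 0.52 (SE 0.29), and Cd55 was at -0.01 (SE 0.12, 95% interval -0.29 to 0.26).

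Recurrent tumors with STV were compared with those without it. edgeR called 0 of the 9 genes and 0% of all genes. None of the 9 had an unadjusted p under 0.05, against 1323 of 16870 genes, and DESeq2 called no member and 277 of 14446 genes. Cfb was the 1 member that was lower in both tumors with STV than in all 3 without (log2 fold change -0.83, SE 0.50, adjusted p = 0.770), as were 10.5% of genes, and no member was higher in both, as were 10.9% of genes. C4b stood at 1.28 (SE 0.59, 95% interval -0.05 to 2.61, adjusted p = 0.663). The signs of 7 of the 9 estimates turned when recurrent 17-DMAG tumor 1 was left out, C3 for instance from -0.70 to 1.11 and Serping1 from -0.02 to 1.21. C4b (1.85) and Cfb kept theirs. Without recurrent 17-DMAG+STV tumor 1, C4b was at 0.43. With all tumors C5ar1 was at -0.31 (SE 0.69), Cfp at -0.30 (SE 0.52), C3ar1 at -0.22 (SE 0.43), C2 at -0.17 (SE 0.74) and Cd55 at 0.16 (SE 0.18). In the test of whether the recurrence difference itself depended on STV, edgeR called 0 of the 9 genes and 0% of all genes. No member and 1322 of 16870 genes had an unadjusted p under 0.05 by edgeR. DESeq2 called no member and 189 of 16053 genes. For C4b that difference of differences was 1.61 (SE 0.80, 95% interval -0.20 to 3.41, adjusted p = 0.666), and 0.74 without recurrent 17-DMAG+STV tumor 1. It was 0.86 for Serping1 (SE 1.14), 0.36 for C2 (SE 1.00), 0.32 for C3ar1 (SE 0.58), 0.08 for C3 (SE 1.59), 0.07 for C5ar1 (SE 0.91), -0.05 for Cfp (SE 0.69), -0.14 for Cd55 (SE 0.25) and -0.76 for Cfb (SE 0.66).

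**Figure D2:**
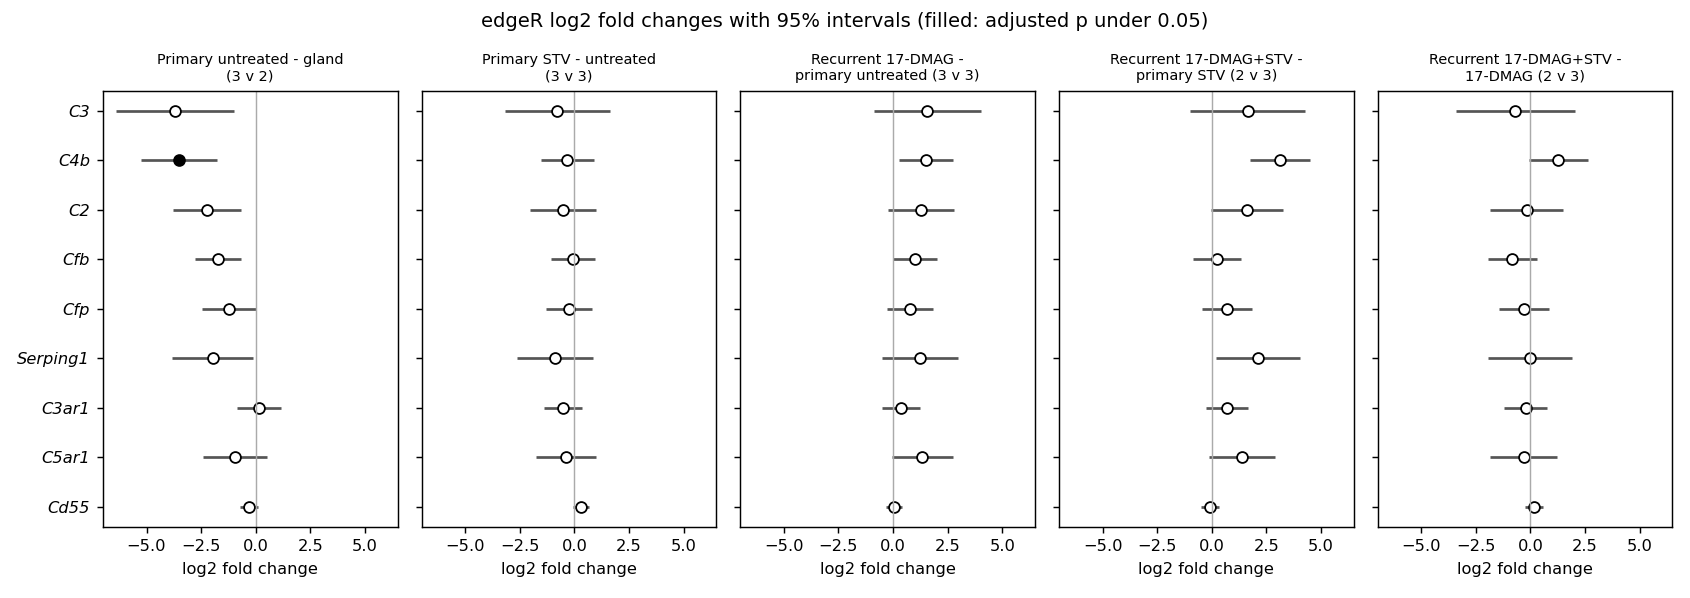
Log2 fold changes of the 9 genes from edgeR in 5 comparisons, with points at the estimate and lines at the 95% interval; the numbers of libraries are above each panel. C4b is the 1 filled point, at -3.53 in primary untreated tumors against glands, and its estimates in both recurrence comparisons, 1.53 and 3.13, have intervals above 0.

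Beyond the groups, the 9 genes varied together in subsets across the 11 tumors. Of 36 pairs of members, 9 had a Spearman rho of 0.7 or more and 8, all with Cd55, were below 0. These values and those that follow describe 11 tumors that share groups, and recurrent 17-DMAG tumor 1 weighs on them, so no test is given. C3 and Serping1 ranked the tumors in nearly the same order (rho = 0.99, Pearson r = 0.94, and rho = 0.99 without recurrent 17-DMAG tumor 1). C2 followed C3 (rho = 0.82) and C4b (rho = 0.84). C3ar1 and C5ar1 went together (rho = 0.75, r = 0.91), and C3ar1 and Cd55 ran opposite (rho = -0.73, r = -0.81).

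The nearest marker list, by Spearman rho with the mean log2 CPM of the list, differed between members. C3 ordered the 11 tumors exactly as the 9 fibroblast markers did (rho = 1, r = 0.98), which held also without recurrent 17-DMAG tumor 1 (rho = 1) and after subtracting group means (r = 0.98). Serping1 stood as close (rho = 0.99, r = 0.95). C3ar1 was nearest to the macrophage markers (rho = 0.85, r = 0.91), though after subtracting group means the NF-kB and acute phase list was nearer (r = 0.95 against 0.91). C5ar1 had no single nearest list. By rank the neutrophil markers were first (rho = 0.85, r = 0.83), with the B cell markers close (rho = 0.84, r = 0.88). Only 5 neutrophil and 2 B cell markers passed the filter and entered these means. In tumors the 9 counted neutrophil markers summed to at most 14.8 CPM and the 6 B cell markers to at most 1.67 CPM. By Pearson r the macrophage list and the NF-kB and acute phase list were nearer to C5ar1 (r = 0.91 each). After subtracting group means these lists were at r = 0.90 each, as was the B cell list, against 0.71 for neutrophils. C4b was nearest to the NF-kB and acute phase list, of which 9 genes passed the filter and entered the mean (rho = 0.91, r = 0.89). That r was 0.81 without the 2 tumors farthest from the list's median, and C4b was less near to the fibroblasts (rho = 0.63, r = 0.54). After subtracting group means, r of C4b with the NF-kB and acute phase list was 0.58, below its values with the T cell list (0.74) and the interferon gamma response list (0.67). Cfb was nearest to the interferon gamma response list (rho = 0.73, r = 0.73), and both were lowest in primary untreated tumor 2. For C3 and that list the values were rho = -0.09 and r = 0.03. C2 was nearest to the fibroblast list (rho = 0.82, r = 0.82) and Cfp to the macrophage list (rho = 0.78, r = 0.91).

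**Figure D3:**
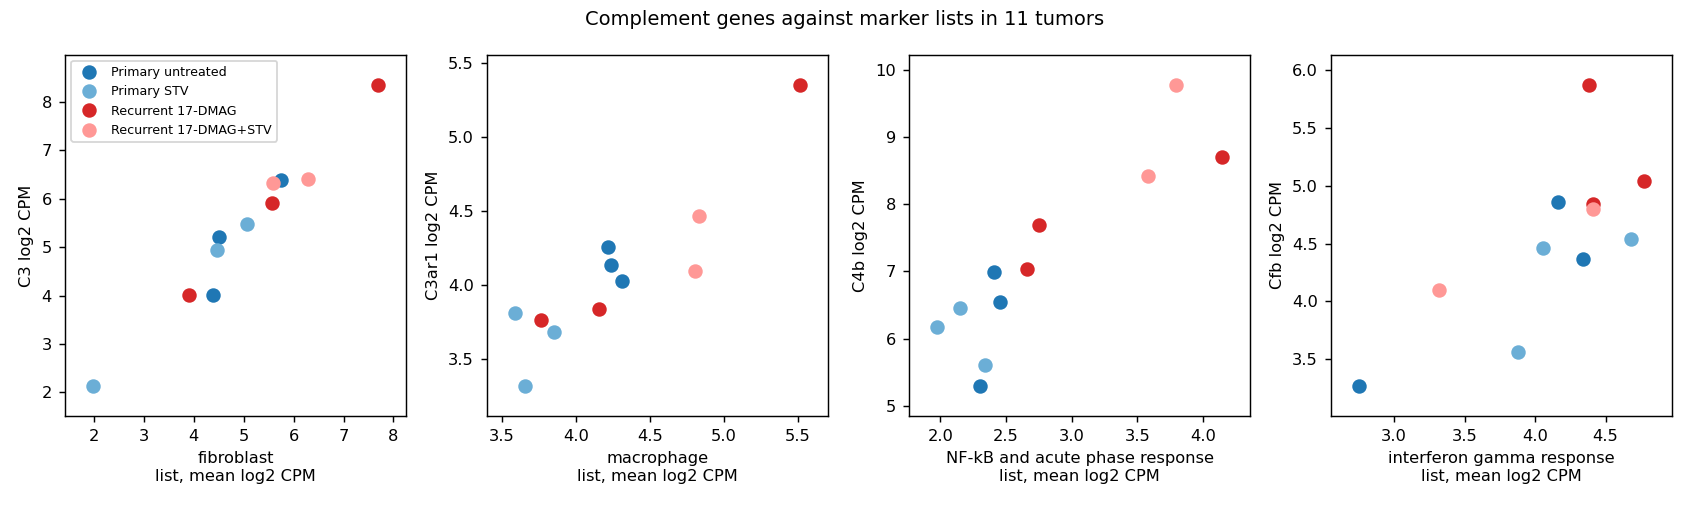
Log2 CPM of 4 members against the mean log2 CPM of the marker list nearest to each by Spearman rho, with 1 point for each of 11 tumors colored by group. C3 follows the fibroblast list in an unbroken order (rho = 1), and C4b separates the 5 recurrent from the 6 primary tumors on its own axis.

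The single genes most like each member were sought among 12683 other genes whose log2 CPM averaged 1 or more. For C3 they were Bmper, C1s1 and Maf (rho = 1, 0.99 and 0.99), of which C1s1 encodes the complement protease C1s. For Serping1 they were Bmper, Medag and C1s1 (rho = 0.99, 0.99 and 0.98). For C4b they were Rac2, Tnfrsf1b and Cebpb (rho = 0.96, 0.96 and 0.95), where Tnfrsf1b encodes a TNF receptor and Cebpb a C/EBP transcription factor. Cebpb was at 95.8 to 129 CPM in primary and 126 to 164 CPM in recurrent tumors. For C3ar1 they were Trem2, Adam8 and Adhfe1 (rho = 0.97, 0.95 and 0.95), Trem2 being a receptor of macrophages. For C5ar1 they were Tmem176b, Mmp14 and Dab2 (rho = 0.98, 0.97 and 0.96). Cfb was nearest to Nelfe, Eepd1 and Cyfip1 (rho = 0.97, 0.95 and 0.95), C2 to Ppp1r12c, Ccdc126 and Fcgbp (rho = 0.96, 0.95 and 0.95) and Cfp to Col8a1, Adam23 and Cilp (rho = 0.93, 0.91 and 0.91). Cd55 was nearest to Kif5a, A630072M18Rik and Gm12942 (rho = 0.95, 0.93 and 0.93).

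**Figure D4:**
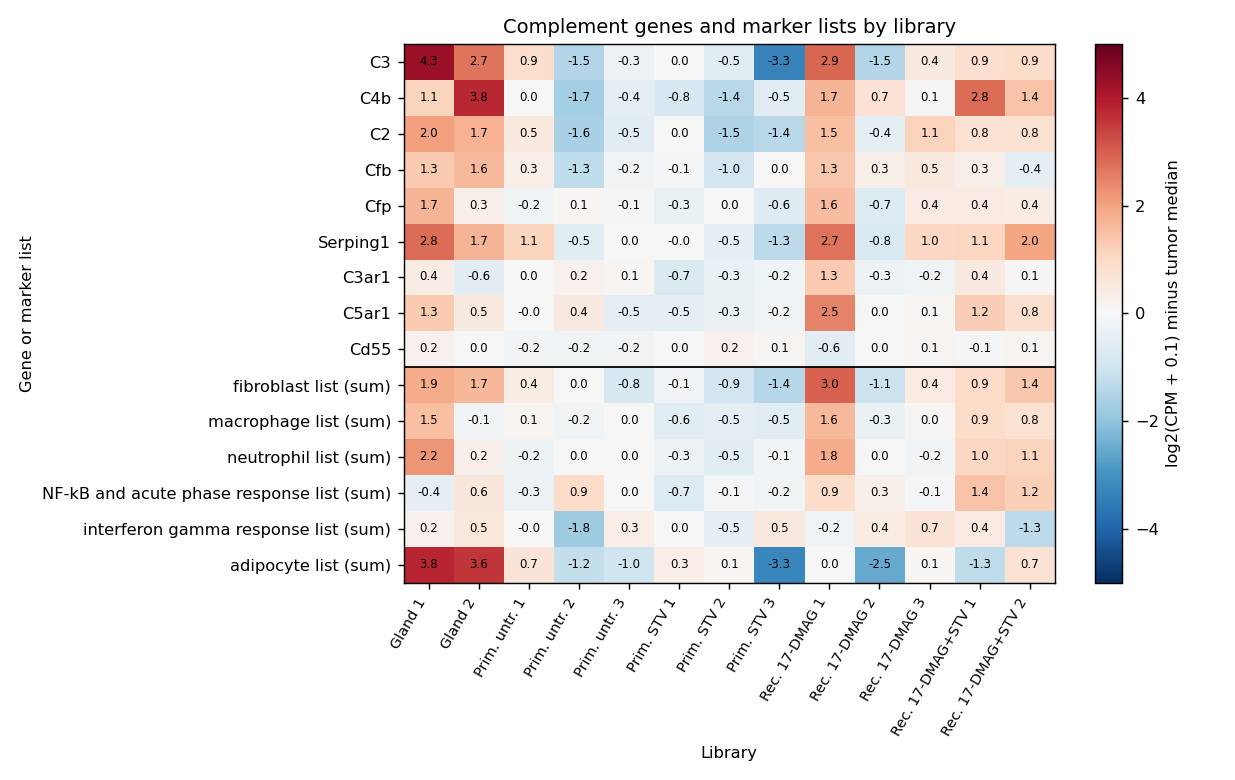
Log2(CPM + 0.1) of the 9 genes (upper rows) and of the summed CPM of 6 marker lists (lower rows), each minus its median over the 11 tumors, in all 13 libraries. Recurrent 17-DMAG tumor 1 is high for the fibroblast, macrophage and neutrophil lists and for 8 of the 9 genes. C4b and C3 depart from each other in several libraries. Relative to its tumor median, C4b is the higher of the pair in gland 2, primary STV tumor 3, recurrent 17-DMAG tumor 2 and both recurrent 17-DMAG+STV tumors. C3 is the higher in the others, among them gland 1 (888 CPM, with C4b at 272 CPM) and recurrent 17-DMAG tumor 1 (328 CPM, with C4b at 414 CPM).

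Of 44 other complement genes on the lists, 36 could be tested against the glands and 35 in tumors, and edgeR called 0 of them in any of the 7 comparisons. Against the glands 27 estimates were lower and 9 higher in primary untreated tumors. Among the lower ones Itgax was at -1.46 (SE 0.40, adjusted p = 0.0735), Itgb2 at -1.94 (SE 0.57, adjusted p = 0.0866) and C4a at -1.38 (SE 0.41, adjusted p = 0.0866). Averaged over both arms, 24 were higher and 11 lower in recurrent tumors, with a median log2 fold change of 0.56. Of these, 9 of the higher and 2 of the lower had an unadjusted p under 0.05 by edgeR, against 2296 of all 16870 genes tested. The C1q chains, made by macrophages, were at 0.71 for C1qa (SE 0.27), 0.74 for C1qb (SE 0.27) and 0.82 for C1qc (SE 0.26), with adjusted p-values of 0.335, 0.324 and 0.313. Of the integrin chains that form complement receptors on leukocytes, Itgax was at 1.08 (SE 0.27, adjusted p = 0.287) and Itgb2 at 1.05 (SE 0.32, adjusted p = 0.310). Without STV, Itgax was at 0.86 (SE 0.36) and C1qc at 0.78 (SE 0.34), and with STV they were at 1.30 (SE 0.40) and 0.86 (SE 0.38).

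The membrane regulators Cd59a and Cr1l resembled Cd55 in that their estimates lay near 0. Cd59a, which blocks the membrane attack complex, was at 0.03 (SE 0.29) and Cr1l, the rodent Crry protein that blocks C3 convertases, at -0.16 (SE 0.10). Susd4, a low-level regulator, was at -1.19 (SE 0.34, adjusted p = 0.290 by edgeR), an average of arms with opposite signs. Without STV it was at 0.28 (SE 0.44), from 5.07 ± 1.59 CPM in primary to 6.21 ± 1.27 CPM in recurrent tumors (SD, n = 3 each), and with STV at -2.65 (SE 0.55), from 7.32 ± 0.59 CPM (SD, n = 3) to 1.16 ± 1.01 CPM (SD, n = 2). Hc, which encodes C5, was at 1.32 (SE 0.58, adjusted p = 0.363) and at 0.357 to 5.59 CPM in recurrent tumors. C5 protein was not measured, so these RNA values do not show that it was made. Cfd, the factor D protease that adipocytes secrete, was at 93.2 and 166 CPM in the glands. It was at 1.83 to 18.6 CPM in primary untreated tumors and at 0.0844 to 36.2 CPM in primary STV tumors. Cfd did not pass the edgeR test for primary untreated tumors against glands (log2 fold change -3.80, SE 1.55, adjusted p = 0.169).

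**Figure D5:**
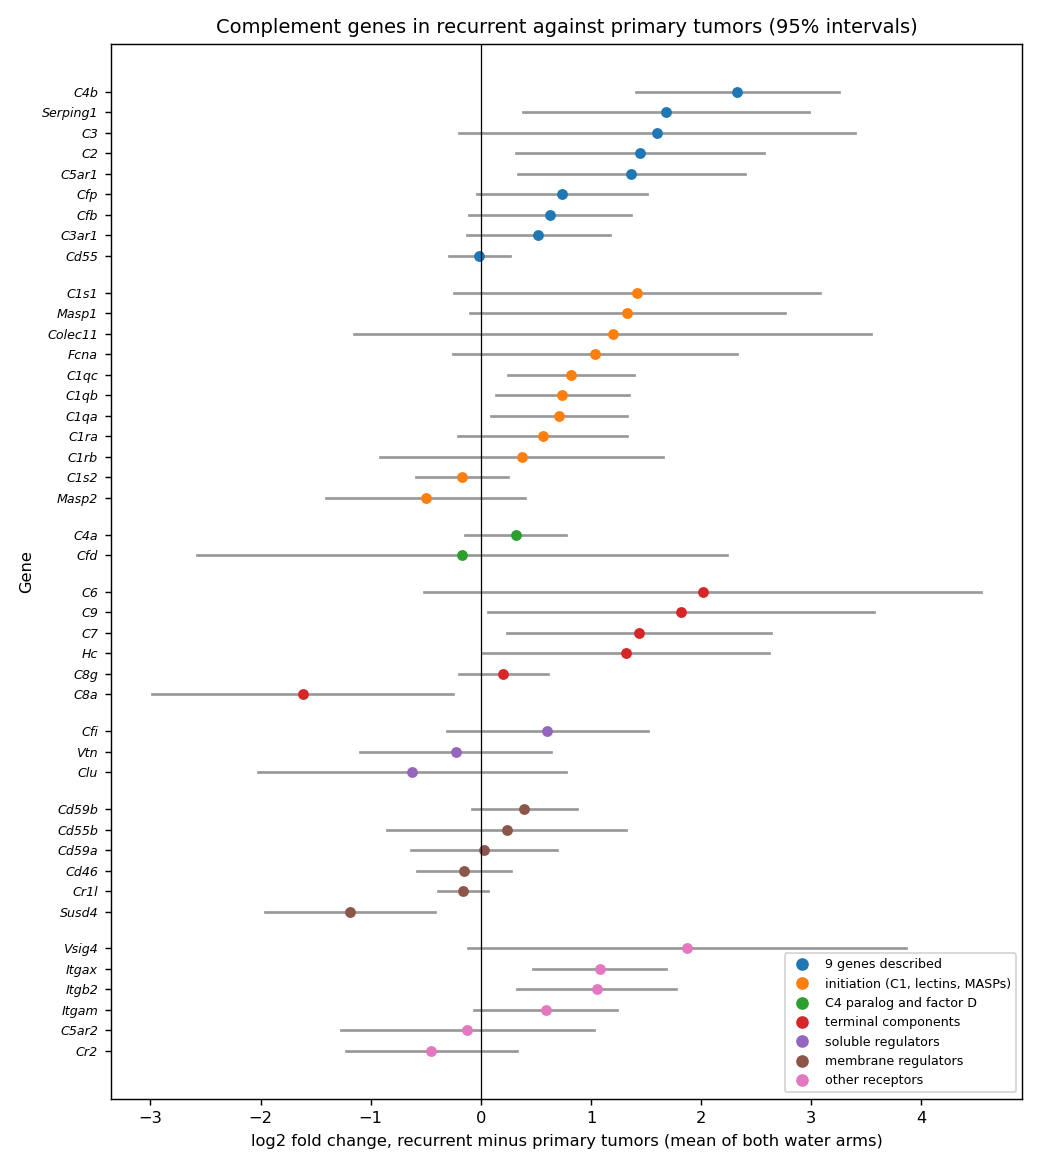
Log2 fold change between recurrent and primary tumors, as the mean of the arms with and without STV, with 95% intervals from edgeR, for the 9 genes (top block) and other complement genes in blocks by role. C4b has the largest estimate of all, 2.33, and Cd55 at -0.01 and Cr1l at -0.16 lie near 0 with narrow intervals.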

How the data were processed

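The authors removed ribosomal RNA from total RNA, made stranded libraries, aligned reads to GRCm38 (mm10) with STAR and counted them per gene of the UCSC annotation with featureCounts (Subread 1.6.2 in the submitters' processing notes). The deposited values are raw read counts, not normalized, 1 column per library. The strand setting and the handling of multimapping reads are not given in the sources used here. No counts column was left without a sample.

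Counts were tested with edgeR 4.0.16 in R 4.3.3 (filterByExpr, TMM, robust quasi-likelihood test). The gland comparison used all 13 libraries (17135 genes, biological coefficient of variation 0.431) and the 6 tumor comparisons used the 11 tumors (16870 genes, 0.402), with Benjamini-Hochberg adjustment over all genes tested and a threshold of 0.05. All tests were two-sided, and the scripts were tested on simulated data. All 9 members passed the filter. DESeq2 1.42.0, limma voom 3.58.1, other scalings and filters, a replicate block, the compared groups alone and leaving out each library were the alternatives. Log2 CPM used a prior count of 2. A count of 3 was the detection floor, equal to 0.0587 to 0.107 CPM, and covers counting error only. Exon lengths and positions are from GENCODE M21 (basic set), promoters from RefSeq GRCm38.p6.

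The members and lists were chosen with earlier results of these data known. All 9 members are named in every comparison. Of 44 other complement genes, those called, up to 3 higher and 3 lower with the smallest unadjusted p under 0.05 and an average log2 CPM of 1 or more per comparison, and C1qa, C1qb, C1qc, Cfd, Cd59a, Cr1l, Hc and C5ar2 could be named; 1 gene of this rule is not reported here. Marker genes were named beside a result. For each member the 3 genes with the highest Spearman rho were named. The labels give no batch.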

Additional observations from a re-analysis of the deposited data

How the results depend on the processing

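DESeq2 gave more calls over all genes than edgeR in the 7 comparisons: 2352 against the glands, 17 for STV in primary tumors, 61 for recurrence without STV, 331 for recurrence with STV, 277 for STV in recurrent tumors, 419 for recurrence averaged and 189 for the interaction. Among the 9 genes it called 4 against the glands, 1 for recurrence with STV and 1 for recurrence averaged, the last 2 being C4b. The call of C4b against the glands, 1 of 9 genes, became 0 without a filter on low counts, in limma voom, with the compared groups alone, with the replicate block, without milk, muscle and adipocyte genes, and with library totals in place of TMM factors, an alternative chosen after seeing the data. Over all genes that comparison had 0 calls with the compared groups alone, 4 with the replicate block and 19 with library totals, against 361. With the compared groups alone, recurrence with STV had 2 calls over all genes. Fits with the compared groups alone hold fewer libraries, and the cause of the other shifts was not tested.

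Leaving out 1 library at a time gave 0 to 3381 calls over all genes against the glands, the highest without gland 1, and 0 to 2 among the 9 genes, the 2 being C4b and Cfb without recurrent 17-DMAG tumor 1. It gave 0 to 1 calls over all genes for recurrence without STV, 0 to 100 for recurrence with STV, 0 to 141 for STV in recurrent tumors, 0 to 6 for recurrence averaged and 0 to 77 for the interaction. The highest counts of these last 4 came without recurrent 17-DMAG+STV tumor 1.

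Signs turned only for estimates that were not called. In limma voom, Cfb for STV in primary tumors was at 0.0065, and for STV in recurrent tumors C3 was at 0.29, C2 at 0.061, Cfp at 9.57e-05, Serping1 at 0.56 and C5ar1 at 0.20. The interaction of Cfp was at 0.27. With the replicate block Cfb for STV in primary tumors was at 0.0053, and C2 and Serping1 for STV in recurrent tumors at 0.18 and 0.35. With library totals Cd55 against the glands was at 0.025 and the interaction of C5ar1 at -0.0051. Of 15 pairs of libraries with the same replicate number, 3 had deviations correlated above 0.1 (median -0.051), so the numbers were not taken to pair the samples.

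Leaving out 1 library turned 36 estimates, all with adjusted p-values over 0.05. Against the glands the range was C3ar1 -0.16 to 0.73. For STV in primary tumors the range was C4b -0.65 to 0.058, C2 -1.23 to 0.17 and Cfb -0.38 to 0.32. For recurrence without STV the range was C3 -0.25 to 2.34, C3ar1 -0.33 to 0.67 and Cd55 -0.093 to 0.27. For recurrence with STV the range was Cfb -0.16 to 0.55. For STV in recurrent tumors the range was C3 -1.24 to 1.11, C2 -0.57 to 0.23, Cfp -0.71 to 0.45, Serping1 -0.54 to 1.21, C3ar1 -0.51 to 0.49, C5ar1 -0.71 to 1.00 and Cd55 -0.038 to 0.31. For recurrence averaged the range was Cd55 -0.090 to 0.087. For the interaction the range was C3 -0.70 to 1.88, C2 -0.34 to 1.05, Cfp -0.48 to 0.68, C5ar1 -0.36 to 1.35 and Cd55 -0.36 to 0.0072.

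The glands and the recurrent 17-DMAG+STV tumors had 2 libraries each, and neither depth nor the number of libraries was tested as a limit. Where recurrent 17-DMAG+STV tumor 1 was left out, C4b kept its sign: 2.28 for recurrence with STV, 0.43 for STV in recurrent tumors and 0.74 for the interaction.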

Other observations

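Cfb and Nelfe are transcribed toward each other, and 1 base separates their annotated 3′ ends. Nelfe, a subunit of the negative elongation factor, was the gene most like Cfb over the 11 tumors (rho = 0.97, r = 0.95), but its range was narrow, from 27.7 to 36.0 CPM in tumors, against 9.58 to 58.7 CPM for Cfb. The counting of reads that span both ends was not stated.

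The C5a receptors differed in scale of counts. C5ar2 was counted at 23.3 to 249 CPM in primary tumors and 50.8 to 240.2 CPM in recurrent tumors, whereas C5ar1 was at 2.39 to 19.5 CPM over all tumors. The estimate of C5ar2 between recurrent and primary tumors, as the mean of both arms, was -0.12 (SE 0.51, adjusted p = 0.931 by edgeR).

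Susd4, a membrane regulator of complement, was lower in both recurrent 17-DMAG+STV tumors than in every primary STV tumor, as were 17.9% of genes. Both also lay below every recurrent 17-DMAG tumor for Susd4, as for 10.5% of genes. The log2 fold change was -2.65 (SE 0.55, unadjusted p = 0.000853, adjusted p = 0.288) against primary STV tumors and -2.41 (SE 0.55, adjusted p = 0.268) against recurrent 17-DMAG tumors by edgeR, and neither passed the threshold. The cause was not tested.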
